A study of Mus musculus with 6 samples.

Results

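The sarcomere is the contractile unit of striated muscle, and its myosin, actin-binding, Z-disc and M-band genes were followed here in tibialis anterior, a predominantly fast muscle of the mouse lower leg. The members were 40 genes listed by name, covering isoforms of fast, slow and developing fibres. Of these, 28 had an array feature annotated to them alone and are described gene by gene, each through its feature with the highest mean over the 6 arrays; every one had a single such feature. A further 6 genes, the myosin heavy chains Myh1, Myh2, Myh3, Myh4, Myh7 and Myh8, were listed only on features that carry several gene symbols, and their values are given for those features and for no single gene. The other 6, namely Myl3, Mylk2, Tnnt1, Myoz3, Ttn and Neb, were not analysed here.

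The samples were 3 mice with a muscle-specific knockout of the transcription factor ATF4, named ATF4 mKO, and 3 littermate controls, 1 muscle per mouse. All 6 were male, aged 8 weeks and fasted for 24 h before tibialis anterior was taken, so no fed muscle stands beside them. The knockout is named as specific to muscle, and Atf4 in other cells of the tissue was not measured apart. Strain, the promoter that drives the recombinase, the exons it removes and the controls' own alleles are not given in the sources used here. The comparison asks which muscle mRNAs differ in level without ATF4 in fasting. Values are log2 expression values of the deposited table, written as mean ± SD of 3 mice where a group is summarised. Signals of different features cannot be set against each other as amounts of mRNA, so levels are compared between mice and not between genes. In whole muscle, fewer fibres of a type and less RNA per fibre cannot be told apart.

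Muscle fibres differ in the isoforms of nearly every contractile protein. Myosin heavy chains form the motor of the thick filament, light chains sit on the motor's neck, and the troponin complex on the thin filament switches contraction on when its calcium-binding subunit, troponin C, is loaded. Fast and slow fibres use separate genes for troponin I, troponin T, troponin C and the light chains, and tibialis anterior of the mouse holds mostly fast fibres with few slow ones. The Z-disc anchors the thin filaments, and several of its proteins also respond to stretch and load.

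The Atf4 signal checked the labels. It was 8.65, 8.76 and 8.76 in control mice 1, 2 and 3 and 6.73, 7.07 and 6.97 in the ATF4 mKO mice, a log2 fold change of -1.80 ± 0.10 (SE) with an adjusted p of 0.00268 in limma; the exact two-sided permutation p was 0.10, the smallest that 3 against 3 mice allow. Over all 16755 features, 2 passed an adjusted p of 0.05, which is 0.0119%, and 518 had an unadjusted p under 0.05, which is 3.09%. No sarcomere gene of the 28 passed the adjusted threshold, and none had an unadjusted p under 0.05; the smallest adjusted p among them in limma was 0.9999.

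The promoter windows shown here belong to the genes on which the description turns: Ankrd1 and Tnnc1, whose levels differed most between mice of one group; Tpm2 and Ldb3, whose groups did not overlap; and Myh4, an adult fast myosin gene measured on a shared feature. They run from 250 bases before to 50 bases after the start of the gene, are read 5′ to 3′ on the gene's own strand and come from RefSeq on GRCm38.p6. They lie at chr19:36119795-36120094, minus strand (Ankrd1), chr14:31208062-31208361, plus strand (Tnnc1), chr4:43523505-43523804, minus strand (Tpm2), chr14:34588632-34588931, minus strand (Ldb3, the first of 2 windows listed) and chr11:67237562-67237861, plus strand (Myh4).
Ankrd1 promoter: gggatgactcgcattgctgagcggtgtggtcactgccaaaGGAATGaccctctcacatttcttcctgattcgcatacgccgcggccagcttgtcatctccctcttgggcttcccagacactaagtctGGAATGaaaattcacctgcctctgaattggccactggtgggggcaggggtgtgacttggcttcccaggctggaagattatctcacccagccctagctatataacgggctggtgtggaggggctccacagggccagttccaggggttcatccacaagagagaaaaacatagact
Tnnc1 promoter: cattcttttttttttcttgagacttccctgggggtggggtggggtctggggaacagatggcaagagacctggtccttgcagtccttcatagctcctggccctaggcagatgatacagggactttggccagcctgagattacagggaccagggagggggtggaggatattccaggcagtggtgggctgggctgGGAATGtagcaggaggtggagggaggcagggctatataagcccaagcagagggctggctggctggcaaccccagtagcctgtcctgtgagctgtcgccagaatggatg
Tpm2 promoter: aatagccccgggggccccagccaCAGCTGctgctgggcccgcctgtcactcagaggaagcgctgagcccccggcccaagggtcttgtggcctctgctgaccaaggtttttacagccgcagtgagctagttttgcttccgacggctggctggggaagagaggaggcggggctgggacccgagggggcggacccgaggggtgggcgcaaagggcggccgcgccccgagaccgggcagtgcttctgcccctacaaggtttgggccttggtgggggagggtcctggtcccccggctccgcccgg
Ldb3 promoter: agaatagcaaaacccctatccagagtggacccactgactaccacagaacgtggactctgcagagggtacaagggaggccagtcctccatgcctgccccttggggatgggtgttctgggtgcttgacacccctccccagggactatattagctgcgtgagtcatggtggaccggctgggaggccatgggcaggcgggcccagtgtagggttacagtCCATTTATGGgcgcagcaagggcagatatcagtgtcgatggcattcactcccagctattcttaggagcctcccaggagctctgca
Myh4 promoter: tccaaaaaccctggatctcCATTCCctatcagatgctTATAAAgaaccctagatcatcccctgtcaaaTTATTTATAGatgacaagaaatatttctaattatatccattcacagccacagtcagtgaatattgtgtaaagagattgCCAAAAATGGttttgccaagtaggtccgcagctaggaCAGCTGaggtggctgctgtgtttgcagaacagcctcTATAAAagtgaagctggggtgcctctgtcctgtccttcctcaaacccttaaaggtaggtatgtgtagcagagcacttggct

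Capitals mark every match, on either strand, to 6 motifs that were searched: CATTCC (MCAT, read by TEAD factors), CAGCTG (an E-box, read by myogenic factors), TATAAA (the TATA box), TGATGNAA (the composite element of ATF4 with C/EBP factors), and the MEF2 and CArG consensus motifs. The Ankrd1 window held MCAT on the reverse strand at positions -210 and -123 from the start, and the Tnnc1 window at -58. The Tpm2 window held an E-box at -227 and the Ldb3 window a CArG box at -35. The Myh4 window held MCAT at -231, TATAAA at -213 and -31, a MEF2 match at -182 that overlaps a reverse TATAAA, a CArG box at -104 and an E-box at -67.

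Promoter windows were found for 29 of the 40 genes, 35 windows in all. MCAT stood in 11 of the 35, against 14.7% of all 32851 windows of the same length, and the E-box in 13, against 16.3%. TATAAA stood in 9 windows (13.6% of all), the MEF2 motif in 5 (3.19%) and the CArG motif in 5 (1.63%). The ATF4 composite motif stood in 2, those of Pdlim3 and Tnnt1, against 3.97% of all windows. The 13 E-box windows belonged to 11 genes and the 5 CArG windows to 4. Overlapping windows of Ldb3 held the same CArG box, and those of Tnni1 the same E-box. Such matches describe letters and not bound sites.

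Myosin heavy chain genes were represented by 3 shared features, and 1 of them was higher in every ATF4 mKO mouse than in any control, as were 652 of all 16755 features (3.89%). This feature, annotated to Myh8, Myh2, Myh3 and Myh1, which encode perinatal, fast IIa, embryonic and fast IIx myosin, stood at 10.46, 10.40 and 10.08 in control mice 1, 2 and 3 and at 10.64, 10.57 and 10.56 in ATF4 mKO mice 1, 2 and 3. Control mouse 3 was the low value, and the ATF4 mKO mice lay close together. The log2 fold change was 0.28 ± 0.11 (SE), 121% of control, with an unadjusted p of 0.0385 and an adjusted p of 0.9999 in limma, so it did not pass. Without control mouse 3 it was 0.16, with an unadjusted limma p of 0.0965, and it lay between 0.25 and 0.35 when any other mouse was left out. The unadjusted p was 0.103, 0.0707 and 0.0661 without ATF4 mKO mouse 1, 2 or 3, 0.0562 after quantile normalisation, 0.0554 after median centring and 0.0877 without variance moderation, all in limma. It stayed under 0.05 in other limma fits, at 0.0186 with robust, intensity-dependent moderation, 0.0283 with array weights and 0.0311 with a replicate block. Without control mouse 1 or 2 it was 0.0213 or 0.0384, and without the dimmest 33.3% or 50% of features 0.0308 or 0.0295 (limma). No adjusted p in these fits lay below 0.98. Which of the 4 genes gave the signal cannot be told from this feature.

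The feature shared by Myh4 and Myh1, the IIb and IIx myosins of fast glycolytic fibres, was 12.52, 12.71 and 12.64 in controls and 12.66, 12.61 and 12.50 in ATF4 mKO mice, and the groups overlapped. Its log2 fold change was -0.035 with a 95% interval of -0.23 to 0.16. The feature shared by Myh7, the slow myosin, and Myh6, its cardiac neighbour, lay below the median of all feature means, which was 5.87. It was 5.54, 5.78 and 5.70 in controls and 5.44, 5.77 and 5.74 in ATF4 mKO mice, with a log2 fold change of -0.022 (-0.28 to 0.24). The lowest of these 6 values was that of ATF4 mKO mouse 1, the mouse that was also lowest for the slow troponin and tropomyosin genes described further on.

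**Figure D1:**
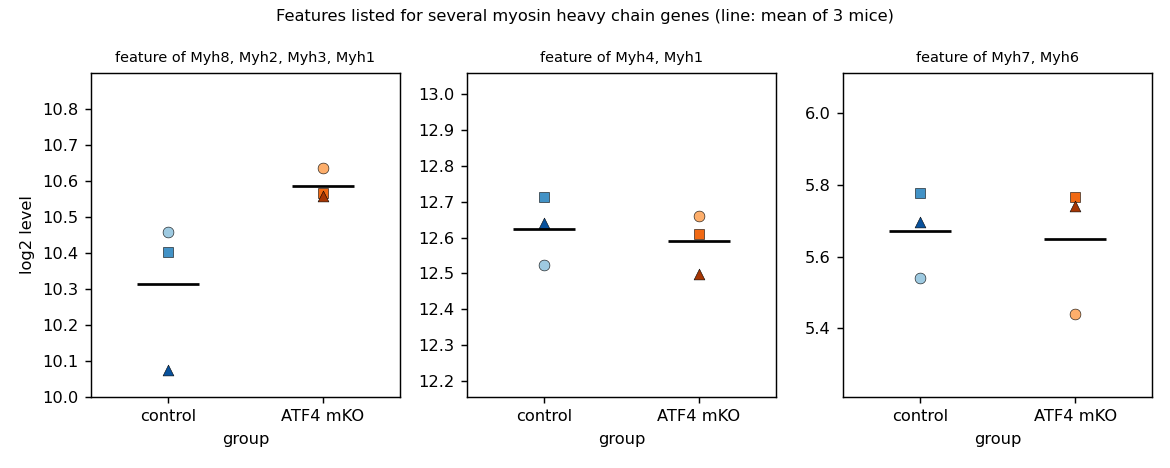
Log2 level of the 3 features annotated to several myosin heavy chain genes, by group. Points are single mice (circle, square and triangle for mice 1, 2 and 3), lines are means of 3 mice, and each vertical axis spans the same log2 range; the groups do not overlap for the feature of Myh8, Myh2, Myh3 and Myh1 and overlap for the others.

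Fast fibre genes differed little from mouse to mouse, and none differed between genotypes by the test. Of the 8 measured, 7 had values above control and 1 below, against 8480 above of all 16755 features. Their median log2 fold change was 0.018, against 0.0013 over all features, with a range from -0.062 (Mylpf) to 0.044 (Mybpc2). Leaving out control mouse 1 or ATF4 mKO mouse 3 lowered that median to 0.0095 or 0.011, and leaving out control mouse 3 raised it to 0.031. Tnni2, the inhibitory subunit of fast troponin, was 12.45, 12.42 and 12.44 in control mice and 12.42, 12.47 and 12.45 in ATF4 mKO mice. The highest and lowest of the 6 mice were 1.04-fold apart, and the 95% interval of the ATF4 mKO level ran from 90.3% to 112% of control.

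The other fast thin-filament genes were as close. Tnnc2, the calcium-binding fast troponin C, averaged 12.56 ± 0.05 in controls and 12.59 ± 0.03 in ATF4 mKO mice (SD, n = 3), and Tnnt3, the fast troponin T that ties the complex to tropomyosin, averaged 12.67 ± 0.05 in controls and 12.67 ± 0.06 in ATF4 mKO mice. Fast thick-filament genes were Myl1, an essential light chain, at 100% of control (95% interval 87.9% to 114%), Mylpf, the fast regulatory light chain, at 95.8% (83.4% to 110%), and Mybpc2, the fast myosin-binding protein C, at 103% (92.4% to 115%). For Mylpf, ATF4 mKO mouse 3 was the low value at 11.44, while the other 5 mice lay between 11.61 and 11.70. At the Z-disc, Actn3, the actinin of fast fibres, stood at 102% (90.3% to 115%) and Myoz1, a calcineurin-binding Z-disc protein of fast fibres, at 102% (91.2% to 115%).

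Slow fibre genes differed more between mice of one genotype, with a median pooled within-group SD of 0.27 against 0.051 for the fast fibre genes, and none passed the test. The 7 measured were Myl2, Tnni1, Tnnc1, Tpm3, Myoz2, Csrp3 and Ankrd2; 4 had values above control and 3 below, and the median log2 fold change was 0.076. The median turned to -0.11 when control mouse 1 was left out and to -0.046 when ATF4 mKO mouse 3 was, and it was 0.11 when ATF4 mKO mouse 1 was. It was 0.023 when ATF4 mKO mouse 2 was left out. None of their 95% intervals lay within 0.25 log2 units of 0, whereas 7 of the 8 fast fibre genes, 6 of the 13 genes shared by fibre types and 4896 of all 16755 features had such an interval. Among the 720 features with a mean of at least 9, 394 had one. In that range, so did 6 of the 7 fast fibre genes, 6 of the 12 shared genes and 0 of the 6 slow fibre genes.

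Tnnc1, troponin C of slow and cardiac muscle, was 9.38, 9.76 and 9.46 in control mice 1, 2 and 3 and 8.45, 9.68 and 9.47 in ATF4 mKO mice 1, 2 and 3. A single mouse, ATF4 mKO mouse 1, stood low, and the groups overlapped. The log2 fold change was -0.34 ± 0.30 (SE), 79.2% of control, with a 95% interval of 49.2% to 127%; without that mouse it was 0.039. Tpm3, the slow tropomyosin that covers actin's myosin-binding sites, was 8.96, 9.35 and 8.91 in controls and 8.60, 9.29 and 9.09 in ATF4 mKO mice. The same mouse was again lowest and control mouse 2 again highest. The log2 fold change of Tpm3 was -0.083 ± 0.19 (SE), and 0.11 without ATF4 mKO mouse 1.

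Myl2, the regulatory light chain of slow and cardiac myosin, was 10.17, 10.54 and 10.33 in controls and 10.12, 10.48 and 10.36 in ATF4 mKO mice. It ranked the 6 mice in the same order as Tnnc1, from ATF4 mKO mouse 1 up to control mouse 2. That order was shared by 13 of all 16755 features (0.0776%). The log2 fold change of Myl2 was -0.026 ± 0.13 (SE). Tnni1, the slow troponin I, was 6.22, 6.16 and 6.49 in controls and 5.98, 6.47 and 6.64 in ATF4 mKO mice. ATF4 mKO mouse 1 was lowest here too, but the highest value was that of ATF4 mKO mouse 3, and the log2 fold change was 0.076 ± 0.17 (SE). Myoz2, the slow-fibre counterpart of Myoz1, averaged 9.60 ± 0.17 in controls and 9.75 ± 0.13 in ATF4 mKO mice (SD, n = 3), and its lowest value was that of control mouse 1.

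**Figure D2:**
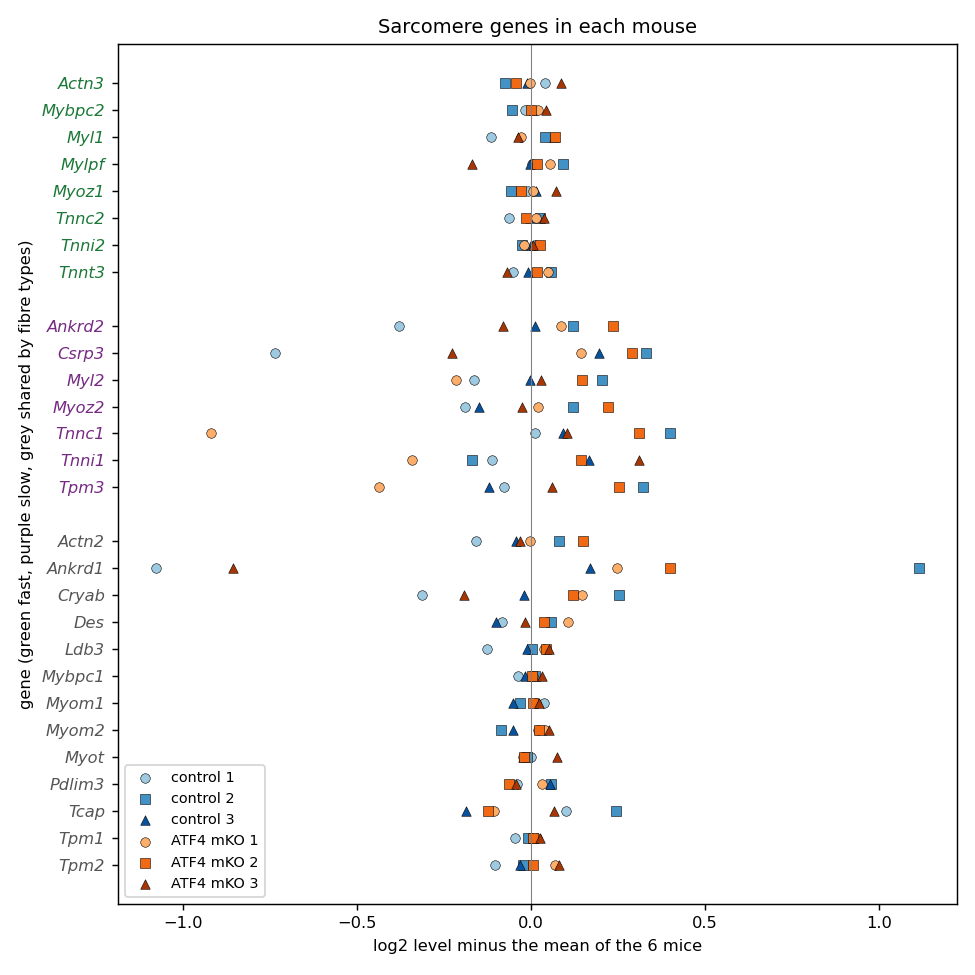
Log2 level of each of the 28 sarcomere genes in each mouse, as the difference from that gene's mean over the 6 mice (horizontal axis), with genes in rows by fibre class. Points are single mice; most fast fibre genes stay within 0.1 log2 units of their mean, while Tnnc1, Csrp3 and Ankrd1 spread over more than 1 unit.

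The 13 genes shared by fibre types took in filament, M-band and Z-disc genes as well as Des, Cryab and Ankrd1. Of these 13, 10 had values above control and 3 below, with a median log2 fold change of 0.033, and none passed the test. That median was 0.021 when control mouse 1 was left out, 0.055 when control mouse 2 was and 0.071 when ATF4 mKO mouse 3 was. In 3 of them, Tpm2, Myom2 and Ldb3, all 3 ATF4 mKO values lay above all 3 controls, and no gene of the 28 showed the reverse. Over all features the groups failed to overlap at 7.78%, with the ATF4 mKO mice higher at 3.89%, and among the 720 features with a mean of at least 9 they were higher at 46. The share of 3 in 28 rests on few genes and differences of at most 107% of control, and it has no test.

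Tpm2, the beta tropomyosin of the thin filament, was 10.97, 11.05 and 11.04 in control mice 1, 2 and 3 and 11.14, 11.08 and 11.15 in ATF4 mKO mice 1, 2 and 3. All ATF4 mKO values were higher by a small margin. The log2 fold change was 0.10 ± 0.07 (SE), 107% of control, with an unadjusted p of 0.179 in limma; with a robust moderation that follows intensity the unadjusted p was 0.0462, and with no variance moderation 0.0386, and both adjusted p-values (0.9999 and 1.00) missed the threshold. Ldb3, a Z-disc protein also named ZASP or Cypher that binds actinin, was 9.54, 9.67 and 9.66 in controls and 9.70, 9.71 and 9.72 in ATF4 mKO mice, with a log2 fold change of 0.088 ± 0.073 (SE). Here control mouse 1 was the low value, and without it the log2 fold change of Ldb3 was 0.047. Myom2, a myomesin that crosslinks thick filaments at the M-band, was 9.70, 9.60 and 9.63 in controls and 9.72, 9.71 and 9.74 in ATF4 mKO mice, and the highest control fell short of the lowest ATF4 mKO mouse by less than 0.01. Its log2 fold change was 0.078 ± 0.070 (SE).

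The remaining filament genes of this class lay within a narrow band. Tpm1, the alpha tropomyosin, stood at 102% of control (95% interval 91.8% to 114%), Mybpc1, the slow-type myosin-binding protein C that fast fibres also make, at 102% (91.5% to 114%), and Myom1, the main myomesin, at 102% (91.3% to 114%). Tpm1 and Mybpc1 were, with Tnni2, the members with the smallest pooled within-group SD, 0.021 in each. At the Z-disc, Actn2, the actinin present in all fibres, stood at 106% of control (91.1% to 123%), Myot, an actin-bundling partner of actinin, at 101% (90.6% to 114%), and Pdlim3, an actinin-associated LIM protein, at 96.7% (86.0% to 109%). Des, the intermediate filament desmin that links neighbouring Z-discs, stood at 106% (93.3% to 120%). Tcap, the telethonin that caps titin at the Z-disc, was lower in value at 92.9% (76.4% to 113%), with control values from 9.79 to 10.22 that spanned the ATF4 mKO values of 9.85 to 10.04.

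**Figure D3:**
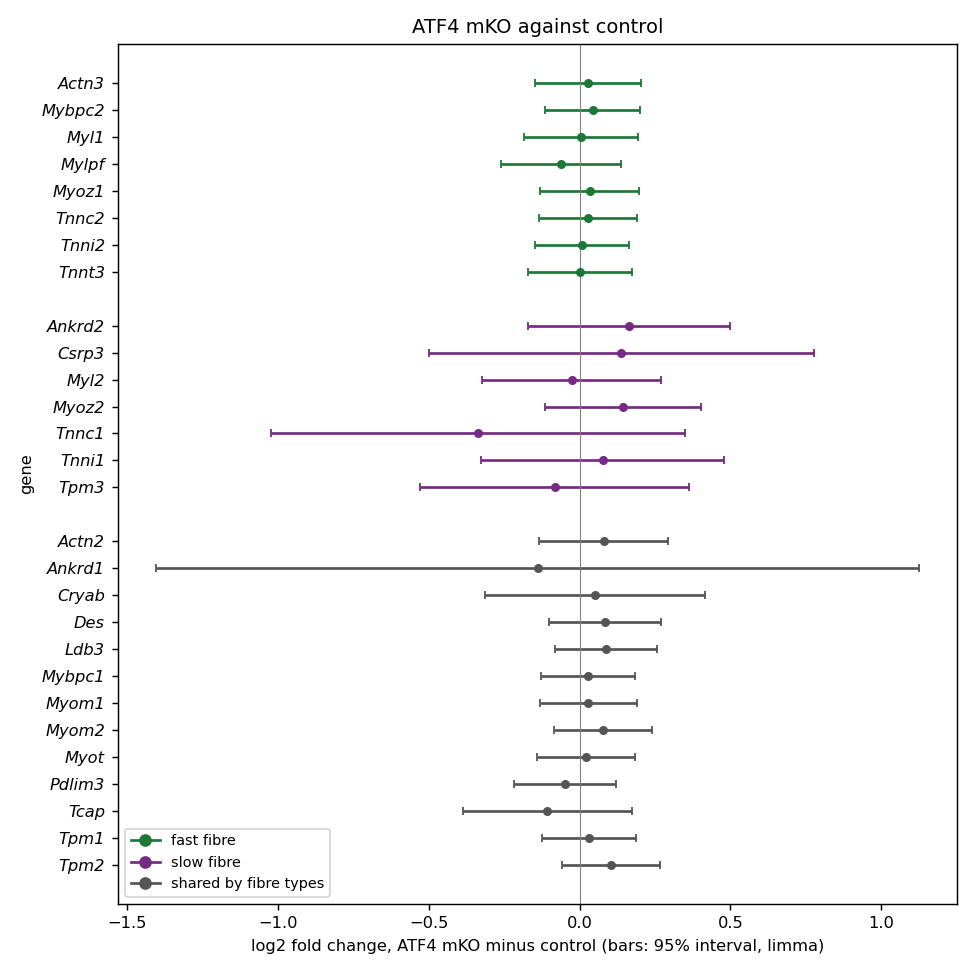
Log2 fold change of ATF4 mKO against control for the 28 sarcomere genes, with 95% intervals from limma and n = 3 mice per group. All 28 intervals include 0; those of Ankrd1 and Tnnc1 are the widest.

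Members known to respond to stretch and stress also differed between mice of one genotype. Ankrd1, which encodes the stretch-inducible ankyrin repeat protein CARP of the titin N2A region, was 7.69, 9.89 and 8.94 in control mice 1, 2 and 3 and 9.02, 9.17 and 7.92 in ATF4 mKO mice 1, 2 and 3. The lowest and highest values were both controls and lay 4.58-fold apart. The log2 fold change was -0.14 ± 0.54 (SE), with a 95% interval of 37.8% to 218% of control, and the log2 value was -0.71 when control mouse 1 was left out, 0.38 when control mouse 2 was and 0.25 when ATF4 mKO mouse 3 was.

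Csrp3, the muscle LIM protein of slow fibre Z-discs, was 9.85, 10.92 and 10.79 in controls and 10.73, 10.88 and 10.36 in ATF4 mKO mice. Control mouse 1 and ATF4 mKO mouse 3 were its lowest values, as for Ankrd1, and the log2 fold change of 0.14 ± 0.27 (SE) was -0.20 without control mouse 1. Ankrd2, the ankyrin repeat partner of Ankrd1 that is most abundant in slow fibres, was 11.16, 11.66 and 11.55 in controls and 11.62, 11.77 and 11.46 in ATF4 mKO mice. Cryab, the small heat shock protein alpha B crystallin that protects desmin and the Z-disc, was 10.002, 10.57 and 10.29 in controls and 10.46, 10.44 and 10.12 in ATF4 mKO mice. Both had the same 2 lowest mice. The log2 fold change was 0.16 ± 0.14 (SE) for Ankrd2 and 0.051 ± 0.16 (SE) for Cryab. For Ankrd2 it was 0.015 when control mouse 1 was left out, 0.086 when ATF4 mKO mouse 2 was and 0.27 when control mouse 2 was. For Cryab it lay between -0.092, when control mouse 1 was left out, and 0.19, when control mouse 2 was.

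Low and high mice were thus not the same for every gene. Control mouse 1 and ATF4 mKO mouse 3 were the lowest pair for Ankrd1, Csrp3, Ankrd2 and Cryab, whereas ATF4 mKO mouse 1 was lowest for Tnnc1, Tpm3, Myl2 and Tnni1. Control mouse 2 was highest in 4 of the 7 slow fibre genes and in 10 of all 28, a share of 35.7% against 17.1% of all features. ATF4 mKO mouse 3 was highest in 11 of the 28, or 39.3% against 20% of all features, and 4 of these 11 were fast fibre genes, 6 genes shared by fibre types and 1 a slow fibre gene. Control mouse 1 was lowest in 12 of the 28, or 42.9% against 17.2% of all features. The mean of the 7 slow fibre genes was 9.32, 9.74 and 9.58 in control mice 1, 2 and 3 and 9.31, 9.78 and 9.58 in ATF4 mKO mice 1, 2 and 3. These 7 include Csrp3, Ankrd2 and Myoz2, which were lowest in control mouse 1, so the slow mean joins genes with different low mice. The mean of the 8 fast fibre genes stayed between 11.37 and 11.41.

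**Figure D4:**
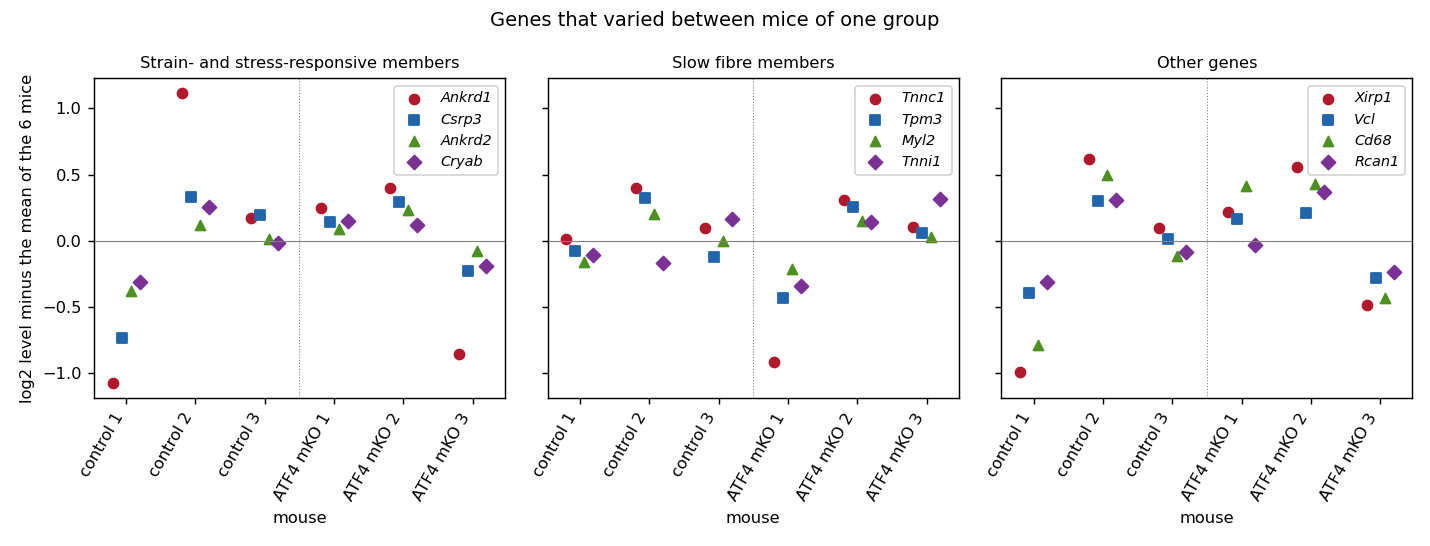
Log2 level minus the gene's mean over the 6 mice, by mouse, for 4 strain- and stress-responsive members, 4 slow fibre members and 4 other genes (Xirp1, Vcl, Cd68 and Rcan1). Points are single values; control mouse 1 and ATF4 mKO mouse 3 are low in the left and right panels, and ATF4 mKO mouse 1 is lowest in the middle one.

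The spread was set beside that of features with a mean of at least 9, a wide range and not a match of level. In controls Tnni2 averaged 12.44 and Tnnc1 9.53, and the highest value of any feature was 13.002. Whether signals near the top of the scale spread less was not tested. The median pooled within-group SD was 0.12 over all features and 0.073 over the 720 with a mean of at least 9. The 7 fast fibre genes in that range had a median of 0.044, the 12 genes shared by fibre types 0.047 and the 6 slow fibre genes 0.26. Tnnc1 had an SD of 0.49 and stood at percentile 99.6 of these 720 features, Csrp3 at 99.3 and Tpm3 at 98.2, while Tnni2 stood at 2.08 and Tpm1 at 1.81. Ankrd1, whose mean lay just below 9, had an SD of 0.92, at percentile 99.9 of all features.

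**Figure D5:**
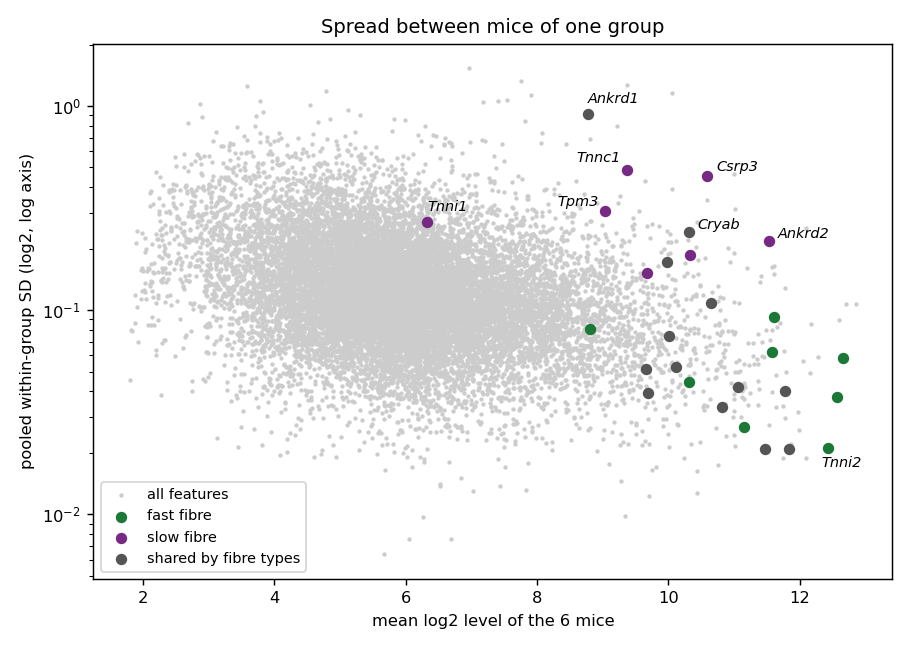
Pooled within-group SD (vertical, log axis) against mean log2 level over the 6 mice (horizontal), with all 16755 features in grey and sarcomere genes coloured by fibre class. Slow fibre genes and Ankrd1 lie in the upper part of the cloud at their level and most fast fibre genes in the lower part.

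Other genes of the contractile apparatus were read from the same fit, and none passed. Of 20 further filament genes 11 were measured; 5 had values above and 6 below control, and the smallest p-values belonged to Tmod1, which caps the pointed end of the thin filament (0.14 ± 0.08, SE), Myh14, a nonmuscle-type myosin (0.11 ± 0.08, SE), and Myl6b, a slow light chain (-0.12 ± 0.12, SE). Acta1, the skeletal actin itself, had 0.029 ± 0.075 (SE). Of 25 further Z-disc, M-band and costamere genes 18 were measured, 9 above and 9 below. Fhl1, a LIM protein of the I-band, had 0.11 ± 0.07 (SE) and Synpo2l, a Z-disc protein, 0.088 ± 0.068 (SE), and these 2 were the genes of that list whose groups did not overlap, both higher in ATF4 mKO mice, 2 of 18 against 3.89% of all features. Bin1, a membrane-bending protein of T-tubules, had 0.11 ± 0.08 (SE).

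Among 14 chaperone and turnover genes 9 were measured, 7 above and 2 below control, with a median log2 fold change of 0.11. Hspb7, a small heat shock protein, had 0.23 ± 0.15 (SE), Capn1, a calcium-activated protease, 0.14 ± 0.10 (SE), and Smyd1, a myosin chaperone partner, 0.11 ± 0.07 (SE). All ATF4 mKO values of Smyd1 lay above all controls, 1 of these 9 genes against 3.89% of all features. Of 22 regulators of fibre type and sarcomere genes 19 were measured, 12 above and 7 below. Myf6, a myogenic factor of mature fibres, had -0.19 ± 0.09 (SE), Ppargc1a, a coactivator that favours slow and oxidative fibres, -0.19 ± 0.12 (SE), and Nfatc2, a calcineurin target, 0.12 ± 0.09 (SE). All 10 calcium and oxygen handling genes were measured, 9 above and 1 below control, against 8480 above of all 16755 features. Genes read on the same arrays and animals are not independent, so these counts of sign have no test. Casq2, the calsequestrin of slow fibres, had 0.21 ± 0.11 (SE). All its ATF4 mKO values lay above all controls, 1 of these 10 genes against 3.89% of all features. Mb, myoglobin, had 0.12 ± 0.08 (SE), and Cacna1s, the calcium channel of T-tubules, 0.10 ± 0.08 (SE). Atp2a2, the calcium pump of slow fibres, was lowest in ATF4 mKO mouse 1 at 7.95, against 8.14 to 8.28 in the other mice. It was picked after its values were seen, and other slow fibre genes differed. Casq2 was lowest in control mouse 2 at 6.26, and Myl6b in ATF4 mKO mouse 2 at 5.66.

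Some genes outside the list ranked the mice like the stress-responsive members. Xirp1, a Z-disc and costamere protein gene, was 7.82, 9.43 and 8.91 in control mice and 9.03, 9.37 and 8.33 in ATF4 mKO mice, which is the order of Ankrd1 in all 6 mice; Vcl, the costamere protein vinculin, had that order too. So did Cd68, a marker of macrophages, at 6.56, 7.84 and 7.23 in controls and 7.76, 7.78 and 6.92 in ATF4 mKO mice. The other 3 of the 4 macrophage markers, Csf1r, Adgre1 and Cd163, did not follow it, and the mean of the list ran from 6.01 to 6.30 in controls and from 6.12 to 6.25 in ATF4 mKO mice. The part of infiltrating cells in the spread of these genes was not tested. Of all 16755 features, 33 (0.197%) had the order of Ankrd1, itself included.

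Marker lists of other cell types were read beside the sarcomere genes. Median log2 fold changes were 0.10 for 5 endothelial, 0.095 for 5 fibroblast, 0.076 for 4 smooth muscle, -0.081 for 4 adipocyte, 0.059 for 4 macrophage, 0.022 for 4 satellite cell, -0.0074 for 2 Schwann cell, 0.26 for 2 erythroid and 0.14 for 2 tendon genes, and no marker passed the adjusted threshold. The mean of the endothelial list was 7.01 to 7.10 in controls and 7.11 to 7.20 in ATF4 mKO mice, higher in each of the latter. That of the adipocyte list was 6.45 to 6.46 in controls and 6.33 to 6.44 in ATF4 mKO mice, lower in each. The margins were small. Control mouse 3 and ATF4 mKO mouse 3 stood at 7.103 and 7.106 for the endothelial list. For the adipocyte list control mouse 1 and ATF4 mKO mouse 3 stood at 6.447 and 6.437. Single features failed to overlap at 7.78%, in either direction, and these list means have no test. Single markers with all ATF4 mKO values above all controls were Tie1 and Cdh5 of endothelium, Cnn1 and Myh11 of smooth muscle and Slc4a1 of erythroid cells. These were 2 of 5, 2 of 4 and 1 of 2 measured, against 3.89% of all features. No marker of the other cell types had such values. The rest of these 3 lists overlapped. Log2 fold changes were 0.10 for Kdr, 0.073 for Tek and -0.016 for Pecam1 of endothelium. They were 0.041 for Acta2 and -0.041 for Tagln of smooth muscle and 0.082 for Alas2 of erythroid cells. Only 2 of the 4 listed erythroid markers were measured. The part of other cell types in the sarcomere values was not tested.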

How the data were processed

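Per the labels' protocols, total RNA of tibialis anterior was extracted with TRIzol, amplified with a SPIA-based kit and hybridised to 1-colour arrays as biotin-labelled cDNA. The deposited values are log2 expression, 1 per feature and mouse; the log2 scale was read from the values (1.63 to 13.002, none missing). The submitters' processing notes name GCOS, RMA and mm9, without versions in the sources used here. RMA quantile-normalises arrays and can compress differences near background. Column medians were 5.84 to 5.91 and array correlations 0.983 to 0.991; precision is limited by the number of arrays.

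Gene symbols came from the platform annotation, updated through Entrez IDs: 14996 of 16755 had 1 symbol, 1019 several and 740 none, and 14941 of those with 1 matched RefSeq (GRCm38.p6). ATF4 mKO was fitted against control over all features with limma 3.58.1 (R 4.3.3; lmFit, eBayes, group only), with Benjamini-Hochberg adjustment at 0.05. List medians and counts are descriptions. Promoter motifs were searched on both strands. The fit was checked on simulated data.

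The members and lists were chosen with earlier results of these data known. Every member is named; per-mouse values are given for members whose groups do not overlap, the 8 with the largest pooled SD, the myosin heavy chain features, Tnni1, Tnni2, Ankrd1, Ankrd2, Csrp3 and Cryab, and up to 3 genes with the smallest p are named from each other list. Mylk2, also in the rule, was not analysed here. Xirp1, Vcl, Cd68, the non-overlapping markers, Rcan1, Acta1, Atp2a2 and the genes ranked like Ankrd1 were named after their values were seen. The alternatives tried were median centring, quantile normalisation, a block on replicate number, filters on low levels, features with 1 symbol, other moderation, array weights, another threshold, the mean over a gene's features, and leaving out each mouse. Sample titles carry mouse numbers 1 to 3 per genotype, with no statement of pairing.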

Additional observations from a re-analysis of the deposited data

How the results depend on the processing

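No sarcomere gene passed the adjusted threshold under any of the 16 alternatives, and 15 of the 28 kept the sign of their log2 fold change under all of them. Signs changed in 30 of 448 combinations of gene and setting. The replicate block, the filters on low levels, the limit to features of 1 symbol and other moderation leave every log2 fold change unmoved. So does the mean over a gene's features, as each of the 28 had a single feature. Signs could therefore change only under median centring, quantile normalisation, array weights and leaving out a mouse. With array weights the log2 fold change was 0.061 for Ankrd1, -0.056 for Tnni1 and -0.0011 for Tnni2; with quantile normalisation it was -0.0045 for Myot and -0.015 for Tnnt3; with median centring it was -0.0030 for Myl1 and -0.0059 for Tnnt3. Leaving out 1 mouse at a time gave -0.0084 to 0.056 for Actn3, -0.71 to 0.38 for Ankrd1, -0.092 to 0.19 for Cryab, -0.20 to 0.34 for Csrp3, -0.052 to 0.038 for Myl1, -0.11 to 0.076 for Myl2, -0.11 to 0.0058 for Mylpf, -0.012 to 0.037 for Myot, -0.58 to 0.039 for Tnnc1, -0.060 to 0.27 for Tnni1, -0.0017 to 0.021 for Tnni2, -0.024 to 0.035 for Tnnt3 and -0.23 to 0.11 for Tpm3. The median of the 28 stayed between 0.017 and 0.039. The number of changed features, 2, was 1 with the replicate block and 1 after centring on medians; dropping the dimmest 33.3% of features gave 5 and dropping 50% gave 7. It was 4 over features of 1 symbol, 7 with robust, intensity-dependent moderation, 0 without moderation (limma; 632 at an unadjusted p under 0.05), 4 at an adjusted p under 0.10 and 1 without each mouse (1 to 1). Atf4 had -1.80 with an adjusted p of 0.192 without moderation and passed otherwise (-1.88 to -1.71 over the alternatives). The replicate block changed no call among the 28. Deviations of same-numbered mice correlated at -0.0021, 0.069 and 0.14, and those of different-numbered mice at -0.12 to 0.060. With 3 mice per group, these values cannot show whether same-numbered mice were paired. The cause of these shifts was not tested. Scanner files were not used here, so signal over background could not be judged.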

Other observations

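A search made after the values were seen gave the features that ranked the 6 mice exactly as Ankrd1 did. With Ankrd1 itself there were 33 of 16755, or 0.197%, and 8 of these, Ankrd1 included, spanned at least 1 log2 unit between the lowest and the highest mouse, as did 448 features in all. Besides Ankrd1, Xirp1 and Cd68 these were Atf3, Lmcd1, Hbegf, Enah and G6pd2. Atf3, an immediate early transcription factor of stress responses, was 5.96, 8.65 and 7.55 in control mice 1, 2 and 3 and 7.72, 7.89 and 6.67 in ATF4 mKO mice 1, 2 and 3, a span of 2.69 log2 units and a log2 fold change of 0.042 between genotypes. Hbegf, a growth factor gene of the EGF family, ran from 7.07 in control mouse 1 to 8.16 in control mouse 2. Lmcd1, a LIM protein gene of striated muscle, ran from 8.98 to 10.14, and Enah, an actin regulator, from 7.12 to 8.12, in the same mice. The order of Tnnc1 was that of 13 features (0.0776%), Tnnc1 included. Of these, 2 spanned at least 1 log2 unit, Tnnc1 itself and a feature annotated to several olfactory receptor genes. Any order of 6 mice can be shared by unrelated features. How many would share 1 order in that way was not worked out, so the 33 and the 13 are counts only. The members share arrays and animals, and what differed between the mice was not tested.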
